A study of Mus musculus with 3 samples.

Results

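C1q-positive barcodes made up 50 of 5019 kept cells in a sort of migratory dendritic cells from ear-draining lymph nodes, a share of 0.996% (95% interval 0.740% to 1.31%). A barcode stands for the contents of 1 droplet, usually 1 cell, and each counted mRNA molecule carries a unique molecular identifier (UMI). A cell was kept when 1 hashtag held at least 80% of its hashtag UMIs, 500 or more genes were detected, mRNA UMIs numbered 1000 or more and mitochondrial genes held no more than 10% of them. Members were selected on a sum of 5 or more UMIs over C1qa, C1qb and C1qc, so their C1q levels are a description and support nothing here. All 3 libraries (mRNA, antibody tags and hashtags) list the same 6079 barcodes, of which 5694 passed the gene, UMI and mitochondrial limits.

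The mice carried Siglech iCre Tg/0, ROSA26 LoxP-STOP-LoxP-RFP and Tnfsf4 KI/+, and all were given MC903, which resembles vitamin D and causes dermatitis, on days 0, 2 and 4. RFP marks cells in which the Siglech-driven Cre has acted at any earlier time, and BFP reports 1 copy of Tnfsf4, the gene of OX40L. On day 5, cells that were B220-, MHCII high, CD11c low to intermediate, XCR1- and CD326- were sorted by reporter, given a hashtag for each population and pooled: 5200 BFP+RFP+ cells, 5200 BFP-RFP+ cells, 10400 BFP+RFP- cells and 5200 BFP-RFP- cells. XCR1 is a marker of type 1 conventional dendritic cells and CD326 of Langerhans cells, and the gate as stated names no marker particular to macrophages. There was 1 pool and 1 capture, the number of mice is not given in the sources used here, and no untreated or reporter-free group is included. Each population is therefore 1 sample, no test between populations or cell groups was possible, and every interval below covers counting error only.

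C1q is the first component of the classical complement pathway. Its chains are encoded by the neighbouring genes C1qa, C1qb and C1qc, and tissue macrophages are its main source, where it binds immune complexes and dying cells. Macrophages of lymph nodes stay in the node, take up lymph-borne material and dead cells, and degrade them in lysosomes. Dendritic cells that have matured in skin instead switch on Ccr7, the receptor that guides them along lymph vessels, and Fscn1, which encodes the actin-bundling protein fascin of their dendrites. Both genes were therefore examined in every C1q-positive barcode.

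The hashtag sequences decide which population a cell belongs to, and the antibody tag sequences carry the surface protein readout used below, so they are printed first as the feature table gives them.
Hashtag 1, BFP+RFP+: acccaccagtaagac
Hashtag 2, BFP-RFP+: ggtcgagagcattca
Hashtag 3, BFP+RFP-: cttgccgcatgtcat
Hashtag 4, BFP-RFP-: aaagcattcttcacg
CD11b tag: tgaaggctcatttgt
CD172a tag: gattcccttgtagca
CD301b tag: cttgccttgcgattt
CD8a tag: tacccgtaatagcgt

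The bases just upstream of the genes that define the members are shown because PU.1, an ETS-family factor encoded by Spi1, governs many macrophage genes. Capitals mark GAGGAA, a core that PU.1 can bind, or TTCCTC, its reverse complement. The windows are the 250 bases before the gene start in RefSeq's GRCm38.p6, on the minus strand, at chr4:136886201-136886450 for C1qb and chr4:136892915-136893164 for C1qc. Both strands were searched, and neither word overlaps another motif searched here.
C1qb: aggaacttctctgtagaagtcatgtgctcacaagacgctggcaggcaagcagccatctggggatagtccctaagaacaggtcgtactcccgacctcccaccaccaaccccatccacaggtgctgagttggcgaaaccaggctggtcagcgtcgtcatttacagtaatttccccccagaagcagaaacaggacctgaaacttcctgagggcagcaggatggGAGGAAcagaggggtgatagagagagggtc
C1qc: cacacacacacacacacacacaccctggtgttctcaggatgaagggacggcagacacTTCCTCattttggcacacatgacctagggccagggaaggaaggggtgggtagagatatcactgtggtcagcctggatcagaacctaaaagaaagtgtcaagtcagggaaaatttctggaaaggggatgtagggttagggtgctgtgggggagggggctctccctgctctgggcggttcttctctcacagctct
Each window holds the word once, as GAGGAA for C1qb and as TTCCTC for C1qc. The word is common, since 7639 of 32851 upstream windows of this length hold it (23.25%). C1qa was not matched in that table.

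Members carried 5 to 247 C1q UMIs, with a median of 48.5. Around the limit of 5, the 7 members with 5 or 6 C1q UMIs had a median of 57 Ccr7 and Fscn1 UMIs, 1 Lyz2 UMI and 48 CD11b tag UMIs, and 18 kept cells just below it with 3 or 4 C1q UMIs had medians of 56.5, 5 and 174.5 in the same order. Of the other 4969 kept cells, 4780 had no C1q UMI and 189 had 1 to 4 (3.80%). The label of macrophage-like cells was checked against C1qa, C1qb, C1qc, Fcgr1, Msr1, Clec4a2 and Tgfbi. All 7 were detected in 12 members, 6 in 17, 5 in 6, 4 in 7, 3 in 5 and 2 in 3. The last 8 members had no UMI of Fcgr1, Msr1, Clec4a2 or Tgfbi, while their Lyz2 ranged from 0 to 215 UMIs. Since the markers were not shared by all, the cells are called C1q-positive barcodes. Sequencing depth was similar in range, with 1625 to 100527 mRNA UMIs in members (median 18198.5) and 1052 to 104448 in the other kept cells (median 14573). Depth bears on a rule with a fixed UMI number. After every cell was thinned to 3000 mRNA UMIs, 32 of 4876 cells had 5 or more C1q UMIs (0.656%).

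By raw UMIs, Ccr7 and Fscn1 divided the members into cells with at most 2 and cells with at least 7. Ccr7 and Fscn1 together gave 0 UMIs in 14 members, 1 in 10 and 2 in 6, while the remaining 20 members had 7 to 360 UMIs with a median of 77. The 30 members with fewer than 3 UMIs are called Ccr7/Fscn1-low below, and the 20 with 3 or more, 40.0% of the members (95% interval 26.4% to 54.8%), Ccr7/Fscn1-high. Among the other kept cells 4723 of 4969 had 3 or more. Relative to depth the groups overlapped. A Ccr7/Fscn1-low member had 1 UMI of these genes in 1625 mRNA UMIs, and a Ccr7/Fscn1-high member had 7 in 25390. The limit of 3 was chosen with earlier results of these data known, and since it divides the members by these genes, their levels in either group are a description.

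**Figure D1:**
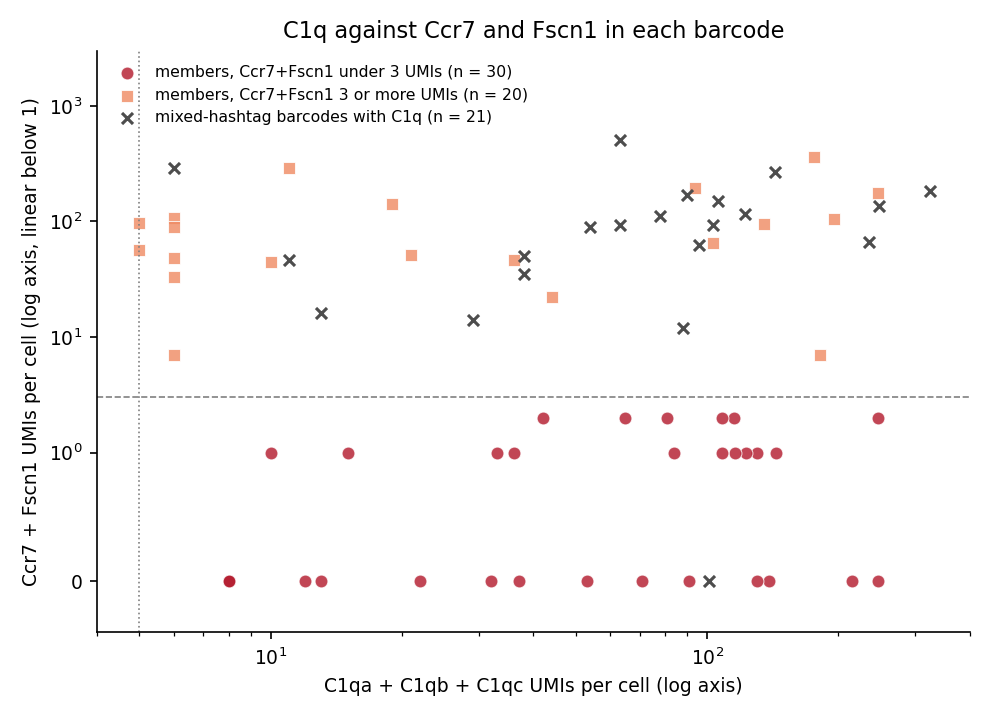
Each point is 1 barcode, with its summed C1qa, C1qb and C1qc UMIs on a log x axis and its summed Ccr7 and Fscn1 UMIs on a log y axis that is linear below 1. Circles are the 30 Ccr7/Fscn1-low members, squares the 20 Ccr7/Fscn1-high members and crosses the 21 mixed-hashtag barcodes with 5 or more C1q UMIs. The dotted line marks 5 C1q UMIs and the dashed line 3 Ccr7 and Fscn1 UMIs, and no member falls between 2 and 7 on the y axis.

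In the Ccr7/Fscn1-low members, Ccr7 had a UMI in 8 of 30 cells (26.7%, 95% interval 12.3% to 45.9%) and Fscn1 in 10 of 30 (33.3%, 17.3% to 52.8%), at a median depth of 15355 mRNA UMIs. Free RNA in droplets can give such UMIs to any cell, so the shares were set beside cells that should not make fascin. Fscn1 had a UMI in 49.0% of 243 T cell barcodes (3 or more Cd3d, Cd3e and Cd3g UMIs, median depth 10186) and in 52.5% of 139 B cell barcodes (median depth 7533). In 33.3% of the T cell and 41.0% of the B cell barcodes Fscn1 had 3 or more UMIs, so these shares cannot be read as free RNA alone. Those barcodes had no upper limit on Ccr7 and Fscn1, whereas the Ccr7/Fscn1-low members had fewer than 3 UMIs by definition. With that limit on both sides, Fscn1 had a UMI in 33.3% of the 30 Ccr7/Fscn1-low members, in 18.6% of 102 T cell barcodes (95% interval 11.6% to 27.6%) and in 14.0% of 50 B cell barcodes (5.82% to 26.7%). The median depths differed, at 15355 mRNA UMIs in Ccr7/Fscn1-low members, 6896 in these T cell barcodes and 5070.0 in these B cell barcodes. In sums, Fscn1 was at 29.0 CPM (UMIs per 1000000 mRNA UMIs) in Ccr7/Fscn1-low members, 22.7 CPM in the T cell barcodes and 20.6 CPM in the B cell barcodes. Ccr7, which T and B cells can make themselves, had a UMI in 61.8% of the same T cell barcodes and 52.0% of the same B cell barcodes. Whether the few UMIs of the Ccr7/Fscn1-low members are free RNA was not tested.

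Over the summed cells, Ccr7 was at 20.1 CPM in Ccr7/Fscn1-low members and 1433 CPM in the other kept cells, a log2 ratio of -6.08 (95% interval -7.29 to -5.23). Fscn1 was at 29.0 CPM in Ccr7/Fscn1-low members and 2176 CPM in the other kept cells, a log2 ratio of -6.18 (-7.14 to -5.46). In the Ccr7/Fscn1-high members the levels were 1259.8 CPM for Ccr7 and 1885 CPM for Fscn1, log2 ratios of only -0.19 and -0.21 over the other kept cells. Over all 50 members, the ratios were -0.93 (-1.03 to -0.83) for Ccr7 and -0.95 (-1.03 to -0.87) for Fscn1, values that describe neither group. Across cells, the C1q and the summed Ccr7 and Fscn1 levels had a Spearman rho of -0.58 over 50 members, -0.58 over the 20 Ccr7/Fscn1-high members and 0.20 over the 30 Ccr7/Fscn1-low members, all values being shares of the same depth per cell.

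Macrophage genes, summed as a list, were above the median of the other kept cells in every Ccr7/Fscn1-low member. Lyz2, the lysozyme of myeloid cells, was detected in 30 of 30, with 518 to 37581 CPM per cell, against a median of 0 CPM in the other kept cells. In sums it was at 12381 CPM in Ccr7/Fscn1-low members and 81.2 CPM in the other kept cells, a log2 ratio of 7.25 (95% interval 7.20 to 7.30). For every list below, the genes compared were those with at least 10 CPM in the other kept cells, a choice made after seeing the data, so that no gene entered through its level in the members. Of 20 macrophage genes, 9 met it, and 8 of the 9 were past a log2 ratio of 1, called the fold here, with a median of 4.12. The same held for 15.4% of all 6998 genes compared, whose median was 0.0026. Genes named for a list with under 10 CPM in the other kept cells, among them Csf1r and Mertk, lie outside its count. Their levels are a description. Csf1r, the receptor for the macrophage growth factor CSF-1, was at 490 CPM in Ccr7/Fscn1-low members and 3.15 CPM in the other kept cells. Mertk, a receptor for dying cells, was at 138 CPM in Ccr7/Fscn1-low members and 0.669 CPM in the other kept cells. Cd63, a membrane protein of late endosomes, was the gene of the 9 past the fold in neither direction, with 646 CPM in Ccr7/Fscn1-low members and 890.1 CPM in the other kept cells.

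Summed over the whole macrophage list, the level per cell ranged from 9322 to 56770 CPM in Ccr7/Fscn1-low members (median 21281). It was 1726 to 28923 CPM in Ccr7/Fscn1-high members (median 5749) and 0 to 113317 CPM in the other kept cells (median 1342). The low and the high members overlapped, and so did each with the highest of the other kept cells.

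Complement genes outside C1q were mostly scarce in the other kept cells. Of 18 listed, only Cr1l had at least 10 CPM there, with 37.9 CPM in Ccr7/Fscn1-low members and 53.1 CPM in the other kept cells, so the list gives no count. C3, the component on which all complement routes converge, was at 468 CPM in Ccr7/Fscn1-low members and 3.12 CPM in the other kept cells, and it was found in 27 of 30 cells. Cfp, which encodes properdin, the stabiliser of the alternative route, was at 437 CPM in Ccr7/Fscn1-low members and 9.35 CPM in the other kept cells. Itgax, an integrin chain of complement receptor 4, was at 225 and 6.08 CPM in that order. C1ra and C1s1, which encode the proteases that join C1q in the C1 complex, had 0 UMIs in all 50 members, as did Serping1, their inhibitor.

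Receptors for dying cells and antibodies likewise included genes nearly missing from the other kept cells. In the list for the uptake of dying cells, 1 of the 4 genes compared was past the fold upward in Ccr7/Fscn1-low members (median 0.09). Of all genes compared, 15.4% were. Axl, like Mertk a receptor that recognises exposed phosphatidylserine through bridging proteins, was at 180.5 CPM in Ccr7/Fscn1-low members and 0.959 CPM in the other kept cells. Timd4, another phosphatidylserine receptor, had a UMI in 5 of 30 Ccr7/Fscn1-low members. Of 2 Fc receptor genes compared, 1 was past the fold upward. Outside that count, the inhibitory receptor Fcgr2b was at 448 CPM in Ccr7/Fscn1-low members and 8.57 CPM in the other kept cells. Fcgr3, an activating IgG receptor also outside it, was at 147 and 1.14 CPM in that order. Of 2 pattern recognition genes compared, 1 was past the fold in each direction. Ly96, the partner of TLR4, was at 53.5 CPM in Ccr7/Fscn1-low members and 113 CPM in the other kept cells. Unc93b1, which delivers endosomal toll-like receptors, was at 421 CPM in Ccr7/Fscn1-low members and 27.7 CPM in the other kept cells.

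Lysosomal genes were past the fold upward in the Ccr7/Fscn1-low members for 18 of 22 compared and downward for none, with a median log2 ratio of 1.78. Psap, the precursor of the saposins that assist lipid breakdown, was at 3536 CPM in Ccr7/Fscn1-low members and 258 CPM in the other kept cells. Cathepsins differed among themselves. Ctsl was at 123 CPM in Ccr7/Fscn1-low members and 6.89 CPM in the other kept cells, Ctsd at 229.5 and 20.5 CPM, while Ctsh was at 519 and 941 CPM, a log2 ratio of -0.85. Lipid genes were past the fold upward for 5 of 9 and downward for 3. Apoe, a lipid carrier, was at 2264 CPM in Ccr7/Fscn1-low members and 87.0 CPM in the other kept cells. Nr1h3, which encodes the oxysterol receptor LXR alpha, was at 332 and 4.40 CPM in that order. Fabp5, a fatty acid carrier, was lower, with 2991 CPM in Ccr7/Fscn1-low members and 6860 CPM in the other kept cells. Iron genes were past the fold upward for 4 of 7. Slc11a1, the phagosomal metal transporter, was too low in the other kept cells to be counted, with 127 CPM in Ccr7/Fscn1-low members and 0.820 CPM in the other kept cells.

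Secreted factors of the Ccr7/Fscn1-low members were uneven between cells. Il1b, an inflammatory cytokine, was at 1609 CPM in Ccr7/Fscn1-low members (23 of 30 cells) and 139.6 CPM in the other kept cells. Cxcl9, an interferon-gamma-induced chemokine for T cells, was at 1081 CPM in Ccr7/Fscn1-low members (21 of 30 cells) and 7.90 CPM in the other kept cells, but the highest single cell had 178 UMIs against a median of 3.5. Pf4, also known as Cxcl4, was found in 12 of 30 Ccr7/Fscn1-low members, with up to 40 UMIs in a cell. Il12b and Il6, cytokines by which dendritic cells steer T cells, had 0 UMIs in all 30. Ccl5 was at 89.1 CPM in Ccr7/Fscn1-low members and 3868 CPM in the other kept cells. Ccl22 and Ccl17, which draw T cells through CCR4, were at 31.2 and 4.46 CPM in Ccr7/Fscn1-low members, against 1959 and 399.6 CPM in the other kept cells. Over the chemokine list, 3 of 8 genes compared were past the fold upward and 4 downward.

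Dendritic cell genes were low in these 30 members beyond Ccr7 and Fscn1. Of 20 genes of mature migratory dendritic cells, 19 were past the fold downward (median -3.43), where 20% of all genes compared were. Ccr7 and Fscn1, on which the cells were divided, are among the 19. Cacnb3, a calcium channel subunit, was at 22.3 CPM in Ccr7/Fscn1-low members and 604 CPM in the other kept cells. Socs2, a cytokine signalling suppressor, was at 15.6 CPM in Ccr7/Fscn1-low members and 835 CPM in the other kept cells. The exception was Cd86, a costimulatory ligand, with 1504 CPM in Ccr7/Fscn1-low members and 1255 CPM in the other kept cells. Summed over the list, the level per cell was 820.4 to 7136 CPM in Ccr7/Fscn1-low members (median 2962) and 144 to 68627 CPM in the other kept cells (median 17291).

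Of 11 conventional dendritic cell genes compared, 7 were past the fold downward and 2 upward in the Ccr7/Fscn1-low members. Flt3, the growth factor receptor of the dendritic cell lineage, was seen in 1 of 30 of these members, with 4.46 CPM against 379.9 CPM in the other kept cells. Zbtb46, a transcription factor of conventional dendritic cells, was at 26.7 CPM in Ccr7/Fscn1-low members and 214 CPM in the other kept cells, and Irf4 at 6.69 and 113 CPM in the same order. The genes past the fold upward were Mgl2 and Sirpa, which macrophages also express. Sirpa, which encodes CD172a, was at 845 CPM in Ccr7/Fscn1-low members and 81.4 CPM in the other kept cells. Antigen presentation genes differed among themselves, with 4 of 11 past the fold upward and 3 downward. H2-Ab1, an MHC class II chain, was at 7815 CPM in Ccr7/Fscn1-low members and 2413 CPM in the other kept cells, and H2-DMb1, part of the peptide-loading complex, at 666 and 65.7 CPM in that order. H2-Oa, which restrains that complex, was at 6.69 CPM in Ccr7/Fscn1-low members and 101 CPM in the other kept cells. Costimulation genes were past the fold downward for 8 of 12 and upward for none, with Cd80, a CD28 ligand, at 71.3 CPM in Ccr7/Fscn1-low members and 687 CPM in the other kept cells.

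Transcription factors of the Ccr7/Fscn1-low members also went both ways, with 9 of 18 compared past the fold upward and 6 downward. Tfec, a relative of Mitf found in myeloid cells, was at 140.4 CPM in Ccr7/Fscn1-low members and 0.820 CPM in the other kept cells. Cebpb, a factor of myeloid differentiation, was at 392 CPM in Ccr7/Fscn1-low members and 12.8 CPM in the other kept cells. Spi1, which encodes PU.1, was shared by both, with 481 CPM in Ccr7/Fscn1-low members and 248 CPM in the other kept cells. Id2, needed by several dendritic cell subsets, was at 129 CPM in Ccr7/Fscn1-low members and 961 CPM in the other kept cells.

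**Figure D2:**
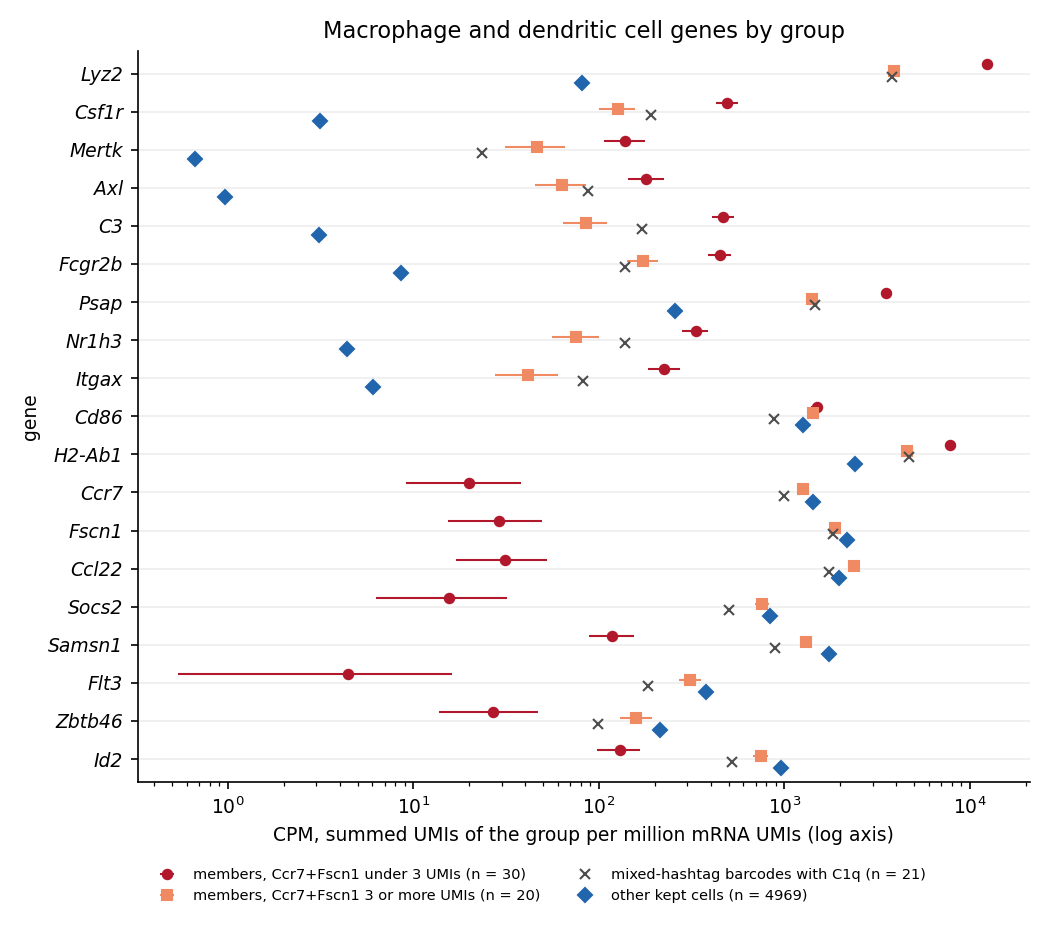
Summed CPM on a log x axis for 19 genes, one row each, in Ccr7/Fscn1-low members, Ccr7/Fscn1-high members, mixed-hashtag barcodes with C1q and other kept cells. Bars on the members' points are 95% counting intervals. From Lyz2 to Itgax the low members lie farthest right and the other kept cells farthest left, and from Ccr7 to Id2 the low members lie alone at the left.

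Of 15 markers of resident lymph node macrophages, Vcam1 and Spic had at least 10 CPM in the other kept cells, and both were past the fold upward in Ccr7/Fscn1-low members. Vcam1, an adhesion molecule of several macrophage types, was found in 23 of 30 Ccr7/Fscn1-low members at 533 CPM, against 24.8 CPM in the other kept cells. Spic, a factor of iron-recycling macrophages, was found in 18 of 30 at 187 CPM, against 27.0 CPM in the other kept cells. Siglec1, the sialoadhesin of subcapsular sinus macrophages, had UMIs in 3 of 30 and Marco, a scavenger receptor of medullary macrophages, in 3 of 30. Lyve1, Vsig4, Cd209f and Cd209g had 0 UMIs in all 50 members. Of 3 monocyte genes compared in the Ccr7/Fscn1-low members, 2 were past the fold upward, where 15.4% of all genes compared were. The chemokine receptor Ccr2, below the limit in the other kept cells, was found with 325 CPM in Ccr7/Fscn1-low members and 5.41 CPM in the other kept cells. S100a4 was past the fold downward, with 795.5 CPM in Ccr7/Fscn1-low members and 3071 CPM in the other kept cells. Lists of other cell types gave values in both directions, and their part in the results was not tested. The list of type 1 conventional dendritic cells summed to 579 CPM in Ccr7/Fscn1-low members, 369.6 CPM in Ccr7/Fscn1-high members and 177 CPM in the other kept cells. Its 4 genes compared, among them Irf8, were all past the fold upward in Ccr7/Fscn1-low members, while Xcr1 had 0 UMIs in the 50 members and Clec9a 1. The stromal and endothelial list summed to 91.4 CPM in Ccr7/Fscn1-low members, 21.6 CPM in Ccr7/Fscn1-high members and 14.4 CPM in the other kept cells, with 5 of its 10 genes at 0 UMIs in the members. The B cell list, most of it Ighm, summed to 160.4 CPM in Ccr7/Fscn1-low members, 83.2 CPM in Ccr7/Fscn1-high members and 121 CPM in the other kept cells. The neutrophil list, in the Ccr7/Fscn1-low members all from Csf3r, summed to 42.3 CPM in Ccr7/Fscn1-low members, 13.9 CPM in Ccr7/Fscn1-high members and 1.39 CPM in the other kept cells. All 5 erythroid genes and 7 of 8 mast cell and basophil genes had 0 UMIs in the 50 members, as had 8 of 10 neutrophil genes. The T cell list summed to 51.3 CPM in Ccr7/Fscn1-low members, 203 CPM in Ccr7/Fscn1-high members, 479 CPM in mixed-hashtag barcodes with C1q and 332 CPM in the other kept cells. Siglech itself, a gene of plasmacytoid dendritic cells, had 1 UMI in the 50 members.

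Summed together, the 20 Ccr7/Fscn1-high members carried both sets of genes, but the macrophage genes were uneven between cells, as described below. Their summed macrophage list was at 8639 CPM and their migratory dendritic cell list at 16301 CPM, against 1762 and 18415 CPM in the other kept cells. Of 9 macrophage genes compared, 7 were past the fold upward, where 4.3% of all genes compared were, with a median of 2.81. Of 20 migratory dendritic cell genes, 1 was past the fold downward (Ccl17, 145 CPM in Ccr7/Fscn1-high members and 399.6 CPM in the other kept cells), where 4.63% of all genes compared were. Flt3 was seen in 18 of 20 Ccr7/Fscn1-high members, and Ccl22 in 18 of 20. Set against the Ccr7/Fscn1-low members directly, 917 of 7415 genes were past the fold upward in Ccr7/Fscn1-high members (12.4%) and 1274 downward (17.2%). The Ccr7/Fscn1-high members were deeper than the Ccr7/Fscn1-low members, with a median of 24805.5 and 15355 mRNA UMIs in that order.

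Barcodes with mixed hashtags, which can hold more than 1 cell or stray hashtag molecules, were measured in the same way. Of 675 barcodes whose leading hashtag held under 80% of the hashtag UMIs, 21 had 5 or more C1q UMIs (3.11%, 95% interval 1.94% to 4.72%), and 20 of these 21 also had 3 or more Ccr7 and Fscn1 UMIs. Their median depth was 38495 mRNA UMIs, and their leading hashtag held 32.9% to 75.8% of hashtag UMIs. The macrophage list summed to 8639 CPM in Ccr7/Fscn1-high members and 8346 CPM in mixed-hashtag barcodes, and Lyz2 to 3879.6 and 3820.1 CPM in that order. The migratory dendritic cell list summed to 16301 CPM in Ccr7/Fscn1-high members and 13299.5 CPM in mixed-hashtag barcodes. In mixed-hashtag barcodes 6 of 9 macrophage genes were past the fold upward over the other kept cells, where 3.79% of all genes compared were. None of the 20 migratory dendritic cell genes was past it downward, where 5.16% were. Barcodes that hold 2 cells of the same population keep a clean hashtag and were not removed by the rule. Whether the Ccr7/Fscn1-high members are such pairs or single cells with both programmes was not tested.

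**Figure D3:**
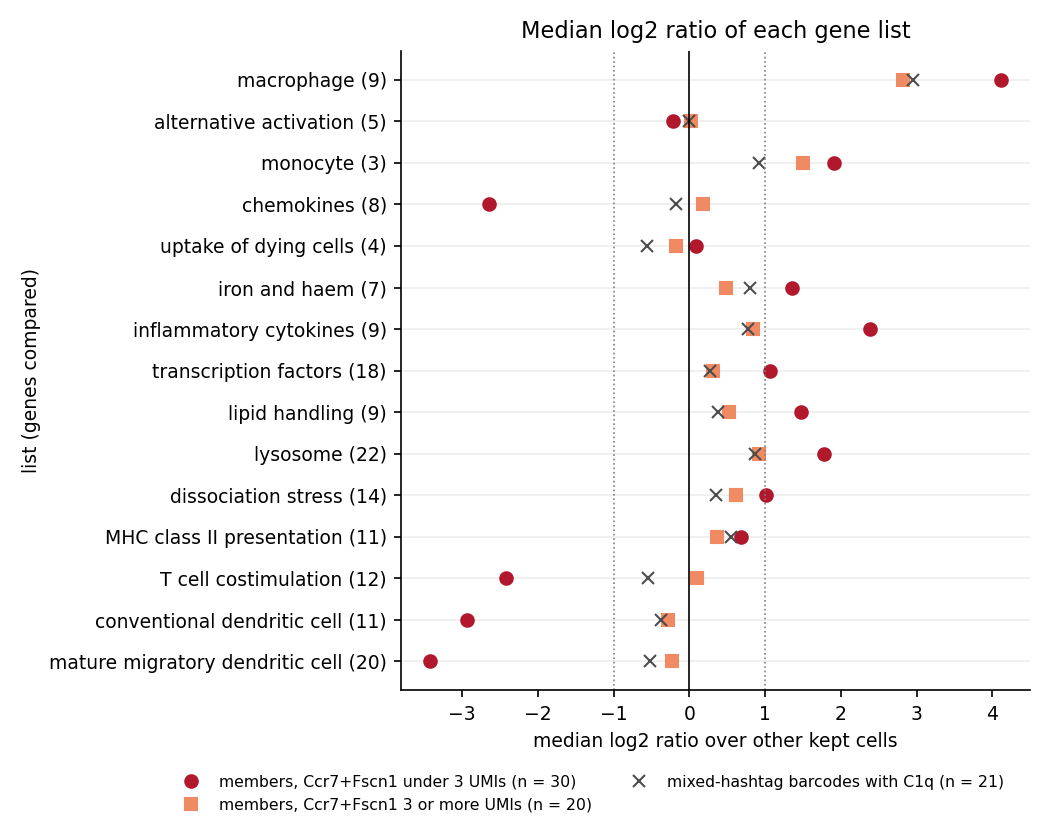
Median log2 ratio over other kept cells for 15 gene lists, one row each with the number of genes compared in brackets, all with at least 10 CPM in the other kept cells. Circles are Ccr7/Fscn1-low members, squares Ccr7/Fscn1-high members and crosses mixed-hashtag barcodes with C1q, and dotted lines mark log2 ratios of -1 and 1. For the migratory dendritic cell list the circle lies at -3.43 while the square and the cross lie at -0.23 and -0.52.

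The Ccr7/Fscn1-high members varied widely in macrophage RNA. In 9 of them C1q stood at 5 to 11 UMIs, Lyz2 at 0 to 39 UMIs (median 1), and Fcgr1, Msr1, Clec4a2 and Tgfbi together at 0 in 6 of the 9. Their macrophage list had a median of 2091 CPM per cell, against 1342 CPM in the other kept cells. Their median depth was 13400 mRNA UMIs, and their CD11b tag had a median of 80 UMIs, against 40 in the other kept cells. Lyz2 summed to 305 CPM in these 9 and 81.2 CPM in the other kept cells, and Fcgr1, Msr1, Clec4a2 and Tgfbi together to 48.1 and 9.74 CPM in that order. Both sums in the 9 rested largely on single cells. A single cell held 39 Lyz2 UMIs, and another held 7 UMIs of the 4 genes, against a median of 0. The other 11 had 19 to 247 C1q UMIs, 112 to 477 Lyz2 UMIs (median 164) and a median depth of 36146 mRNA UMIs. In these 11 the macrophage list had a median of 13856 CPM per cell and the migratory dendritic cell list of 14579.8 CPM. Among the 11, the migratory dendritic cell list ranged from 5081 to 22472 CPM per cell and Ccr7 from 39.4 to 1909 CPM.

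Among the Ccr7/Fscn1-low members, 6 shallow cells stood apart, with 1625 to 3862 mRNA UMIs and 8 to 15 C1q UMIs. Their macrophage list was at 9322 to 54022 CPM per cell, against 11139.9 to 56769.5 CPM in the other 24, so the ranges overlapped almost wholly. The 24 deeper cells had 22 to 247 C1q UMIs, 45 to 685 Lyz2 UMIs and 425 to 2872 CPM of Fcgr1, Msr1, Clec4a2 and Tgfbi together. All 24 had at least 2 UMIs of these 4 genes.

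Over all 50 members against the other kept cells, 1012 of 7397 genes were past the fold upward (13.7%) and 441 downward (5.96%), over genes with a mean of at least 10 CPM over both groups, with a median log2 ratio of 0.06 and C1qa, C1qb and C1qc left out. Under this limit, genes scarce in the other kept cells enter only by being high in members, so the excess upward is partly set by it. Over genes with at least 10 CPM in the other kept cells, counted in the closing section, higher and lower genes were nearly equal in number. Among genes with a mean of at least 30 CPM over both groups, at most 50% of the members' UMIs in 5 cells and 1 sign in every population with at least 10 members, the 20 with the largest ratios were found in 22 to 47 of the 50 members. Itga9, an integrin chain, led with 148 CPM in members and 0.240 CPM in the other kept cells (log2 ratio 9.24). It was followed by Msr1, a scavenger receptor, with 114 CPM in members and 0.745 CPM in the other kept cells (7.25), and by Mertk and Axl (6.96 and 6.85). Uptake and sensing were represented by Slc11a1 (6.43), Nlrp3 (6.15), an inflammasome sensor, Fcgr3 (6.04) and Slamf8 (5.93). Secreted products were Igf1 (6.25), a growth factor, Selenop (6.01), a selenium carrier, and Pltp (6.01), a phospholipid carrier. Others among the 20 were Lyz2 (6.50), Csf1r (6.45), Clec4a2 (6.42), C3 (6.27), Tgfbi (6.17), Cd300c2 (6.11), Clec4a3 (6.07) and Ifi204 (5.89). All 20 were higher over the other kept cells in the Ccr7/Fscn1-low as in the Ccr7/Fscn1-high members, by log2 ratios of at least 4.35 in the Ccr7/Fscn1-high members. These genes were chosen by their ratio over the same members, so this is a description. Apart from Lyz2, they had at most 6.86 CPM in the other kept cells and passed the limit of 30 CPM through the members.

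Under the same limits, the 20 genes with the lowest ratios lay at log2 ratios of -1.76 to -1.15. Cblb, a ubiquitin ligase that restrains lymphocyte activation, was at 162 CPM in members and 551 CPM in the other kept cells. Zfp366, also called DC-SCRIPT in dendritic cells, was at 73.8 CPM in members and 219.9 CPM in the other kept cells, and Fas, a death receptor, at 73.8 and 179.9 CPM in that order. Adora2a, an adenosine receptor, had 0 UMIs in the 30 Ccr7/Fscn1-low members and was found in 18 of 20 Ccr7/Fscn1-high members. Taking 3 UMIs over the 30 cells as the floor, Adora2a was at least 21.7-fold lower in Ccr7/Fscn1-low members than in the other kept cells. The others were Foxo1, Mical3, Ptpn4, Dhx57, Nub1, Arhgap5, Bmp2k, Tmem70, Igf1r, Pcgf5, Dap, Dock8, Vhl, Rasal2, H2bc4 and Zfp809. By abundance, the genes past the fold upward were led by Lyz2 (7354 CPM in members), H2-Ab1 (5887), Fth1 (5481), Psap (2282), Itm2b (1915), Apoe (1623), Cd52 (1485), Ctss (1322), Tyrobp (1220.4) and Il1b (1203).

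Single cells carried some of the sums. Retnla, an alternatively activated macrophage product, had 520 UMIs in the members, all in 1 Ccr7/Fscn1-high cell, and Arg1, another such product, had 0. Genes that respond to cell handling were in part higher, with 7 of 14 past the fold upward in Ccr7/Fscn1-low members, among them Fos at 1094 CPM in Ccr7/Fscn1-low members and 182 CPM in the other kept cells. The part of handling in the other differences was not tested. Interferon-induced genes were past the fold upward for 2 of 5 in Ccr7/Fscn1-low members. Irf7, below the limit in the other kept cells, was found with 272 CPM in Ccr7/Fscn1-low members and 3.34 CPM in the other kept cells. Of 8 proliferation genes compared, 0 were past it upward and 3 downward.

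Surface protein pointed the same way as mRNA for CD11b and CD172a. The CD11b tag, for an integrin of myeloid cells, gave 85 to 1968 UMIs per cell in Ccr7/Fscn1-low members (median 573) and 16 to 3620 in Ccr7/Fscn1-high members (median 487.5), against a median of 40 in the other kept cells. All 30 Ccr7/Fscn1-low members and 18 of 20 Ccr7/Fscn1-high members lay above that median. The 90th percentile of the other kept cells, 318 UMIs, was exceeded by 26 of 30 and 12 of 20. Its gene Itgam was at 37.9 CPM in Ccr7/Fscn1-low members and 1.19 CPM in the other kept cells. The CD172a tag had a median of 365.5 UMIs in Ccr7/Fscn1-low members, 371.5 in Ccr7/Fscn1-high members and 92 in the other kept cells.

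The CD8a tag was higher in the Ccr7/Fscn1-high than in the Ccr7/Fscn1-low members, and the CD301b tag overlapped widely. CD8a, a protein of T cells and of some dendritic cells, had a median of 26.5 UMIs in Ccr7/Fscn1-low members, 178 in Ccr7/Fscn1-high members and 53 in the other kept cells. Only 4 of 30 Ccr7/Fscn1-low members lay above the median of the other kept cells, and 15 of 20 Ccr7/Fscn1-high members did. CD301b, a lectin encoded by Mgl2, had a median of 34.5 UMIs in Ccr7/Fscn1-low members, 90 in Ccr7/Fscn1-high members and 32 in the other kept cells. Above that last median lay 16 of 30 Ccr7/Fscn1-low and 13 of 20 Ccr7/Fscn1-high members, with ranges of 10 to 313 and 15 to 2005 UMIs. Mixed-hashtag barcodes with C1q had medians of 161 for CD8a and 55 for CD301b. Members had more antibody tag UMIs in total, with a median of 1159 against 332 in the other kept cells, but not for every tag. Over all members the median was 31.5 UMIs for CD8a and 39.5 for CD301b. As a share of a cell's antibody tag UMIs, CD11b held 54.5% in members and 13.6% in the other kept cells. CD172a held 31.0% and 28.8% in that order, so its difference nearly vanished on this scale. On it, a high CD11b tag lowers the share of every other tag.

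**Figure D4:**
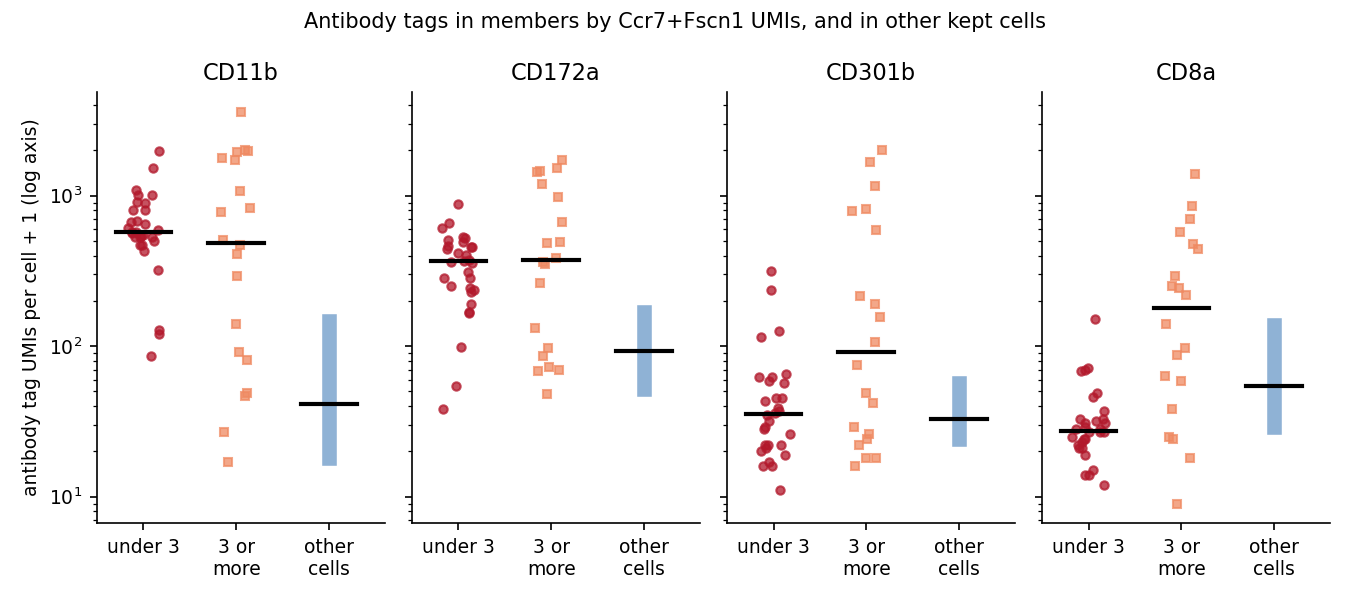
Antibody tag UMIs per cell plus 1 on a log axis for CD11b, CD172a, CD301b and CD8a, in Ccr7/Fscn1-low members (under 3), Ccr7/Fscn1-high members (3 or more) and other kept cells. Points are single members, black lines medians and the blue bar the middle quartiles of the other kept cells. CD11b lies above the bar in most members, and CD8a lies at 26.5 UMIs in the median low member and 178 in the median high member.

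All 4 populations held members, with counts of 4 of 841 BFP+RFP+ cells, 15 of 982 BFP-RFP+ cells, 11 of 2184 BFP+RFP- cells and 20 of 1012 BFP-RFP- cells. The shares were 0.476% (95% interval 0.130% to 1.21%) in BFP+RFP+ and 1.53% (0.857% to 2.51%) in BFP-RFP+ cells. They were 0.504% (0.252% to 0.899%) in BFP+RFP- and 1.98% (1.21% to 3.04%) in BFP-RFP- cells. Within RFP- cells the intervals of BFP+ and BFP- cells did not overlap, within RFP+ cells they did, and within BFP- cells those of RFP+ and RFP- cells overlapped. Ccr7/Fscn1-low members numbered 2, 8, 6 and 14 in these populations, in the order given above, and Ccr7/Fscn1-high members 2, 7, 5 and 6 in the same order. After thinning to 3000 UMIs, the shares were 0.123%, 1.05%, 0.280% and 1.54% in the same order of populations. The populations differ in how they were sorted and in the dendritic cells they hold, which cannot be told apart from a difference in members with 1 sample each.

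**Figure D5:**
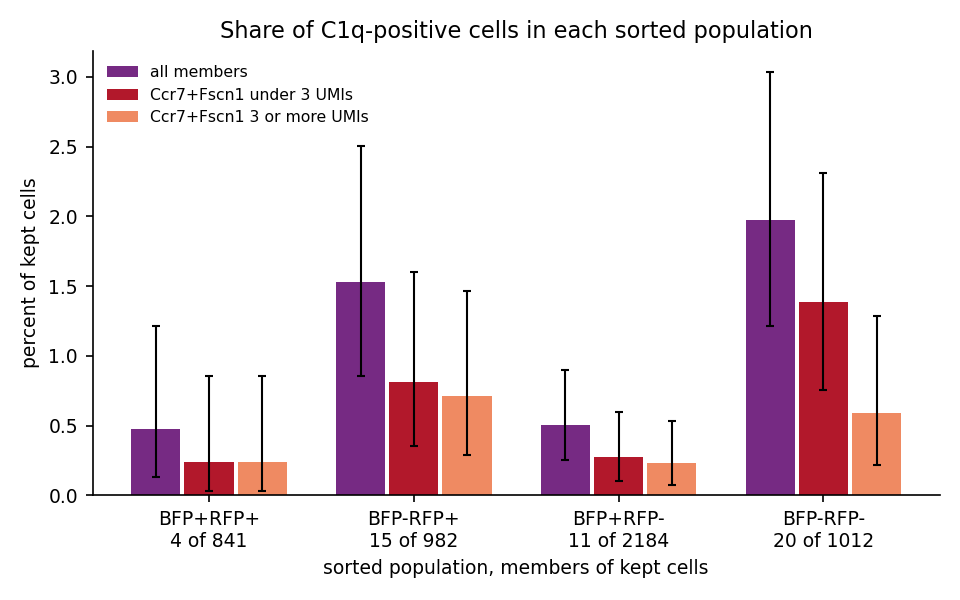
Percent of kept cells that were C1q-positive in each sorted population, for all members, Ccr7/Fscn1-low members and Ccr7/Fscn1-high members. Bars start at 0 and lines are exact 95% binomial intervals, covering counting error only. BFP- populations stand at 1.53% and 1.98%, and BFP+ populations at 0.476% and 0.504%.

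The reporters' own transcripts were hardly seen in the Ccr7/Fscn1-low members. Tnfsf4 had 0 UMIs in all 30, whichever population they came from, and was found in 8 of 20 Ccr7/Fscn1-high members, 5 of which held 96.3% of the UMIs. With 3 UMIs over the 30 cells as the floor, Tnfsf4 was at least 16.9-fold lower in Ccr7/Fscn1-low members than in the other kept cells (113 CPM). That comparison pools populations sorted on the Tnfsf4 reporter, and most Ccr7/Fscn1-low members were BFP-. Within BFP-RFP+ the floor was 26.5 CPM and the other kept cells had 53.1 CPM. The values were 11.8 and 20.4 CPM in BFP-RFP- and 39.9 and 101 CPM in BFP+RFP-, in that order. In BFP+RFP+ the floor lay above the other kept cells, so Tnfsf4 was not detectable at this depth. No single population can show the pooled fold. BFP also had 0 UMIs in these 30 members. For the 6 sorted as BFP+RFP- the floor was 39.9 CPM, above the 16.9 CPM of the other BFP+RFP- cells, so BFP was not detectable at this depth. In the 8 Ccr7/Fscn1-low members sorted as BFP-RFP+, tdRFP had 0 UMIs, where the floor was 26.5 CPM and the other BFP-RFP+ cells had 21.1 CPM. The RFP transcript was therefore not detectable at this depth in these 8 cells. In the 7 Ccr7/Fscn1-high members of that population, tdRFP was at 24.5 CPM, with UMIs in 4 of the 7.

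Within BFP- cells, 15 RFP+ members were set beside 20 RFP- members to see whether the Siglech-Cre label went with a different profile. Of 3110 genes with a mean of at least 50 CPM, 160 were past the fold upward in RFP+ members (5.14%) and 97 downward (3.12%). Under the stricter naming rule (a mean of at least 100 CPM and at most 50% of UMIs in 5 cells), no gene reached the fold upward. The largest ratios were those of Kdm6a (135 CPM in RFP+ and 71.9 CPM in RFP- members, log2 ratio 0.91), Relb (472 and 255 CPM, 0.88) and Foxn3 (454 and 248 CPM, 0.87), followed by Pum2, Lnpep and Apaf1 (0.86 to 0.83). Genes named as lower in RFP+ members were Mmp14, a membrane metalloproteinase (91.3 CPM in RFP+ and 285 CPM in RFP- members, -1.62), Man2a1 (-1.50), Cd44, a hyaluronan receptor (416 and 1153 CPM, -1.47), Lcp2 (-1.40), Itgax (-1.32) and Inpp5d (-1.26). The makeup of the groups differed, since 7 of 15 RFP+ members and 6 of 20 RFP- members were Ccr7/Fscn1-high. Restricted to Ccr7/Fscn1-low members, 8 RFP+ and 14 RFP-, 296 of 3150 genes were past the fold upward in RFP+ members (9.4%) and 129 downward (4.1%). There the ratios were -0.60 for Mmp14, -0.98 for Cd44 and -0.55 for Itgax, each under the fold, and -1.14 for Lcp2. Those of Kdm6a, Lnpep and Apaf1 were 1.06, 1.84 and 1.09, past it. With 1 sample a population, none of these differences has a replicate check. Lyz2 was at 10031.9 CPM in RFP+ and 13254 CPM in RFP- Ccr7/Fscn1-low members.

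Clustering of all kept cells without the C1q genes placed the members mainly together. Of 12 clusters, 7 held members, and 1 cluster of 136 cells held 35 of the 50, namely 24 Ccr7/Fscn1-low and 11 Ccr7/Fscn1-high members. A cluster of 35 cells with a median of 3004 mRNA UMIs held 8 more (6 and 2). Its other 27 cells had 0 to 4 C1q UMIs, 17 of them none. Lyz2 was at 11965 CPM in its 8 members and 14751 CPM in its other cells, and the macrophage list at 24922 and 26402 CPM in that order. The remaining 7 members, all Ccr7/Fscn1-high, were spread over 5 clusters of 402 to 947 cells. In the cluster of 136 cells, the 101 cells that were not members included 96 without a C1q UMI. Lyz2 was at 7925 CPM in its members and 845 CPM in its other cells, and Mertk at 96.6 and 2.39 CPM in that order. Cd209a, a lectin of monocyte-derived and some conventional dendritic cells, had 0 UMIs in its members and was at 229 CPM in its other cells. The cluster got no cell type name, since its cells differed in these genes.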

How the data were processed

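The mRNA, antibody tag and hashtag libraries come from 1 capture of 1 pool of ear-draining lymph node cells. The deposited values are raw UMI counts per feature and barcode, filtered to cell barcodes, made with Cell Ranger 7.0.0 per the file headers, on GRCm39 (mm39) per the submitters' processing notes. Hashtags were matched to populations by the labels' protocol. Counts were summed per group, divided by summed mRNA UMIs (CPM) and compared as log2 ratios after adding 0.5 to each UMI sum, for genes with a mean of at least 10 CPM (50 for RFP+ against RFP-). Gene lists were counted over genes with at least 10 CPM in the other kept cells, in place of the mean over both groups set first, a change made after seeing the data. A log2 ratio of 1 or more in size is called past the fold. No count model or test was used, because each population is 1 sample. Ratios have exact conditional binomial intervals, shares Clopper-Pearson intervals and CPM in the plots exact Poisson intervals, all at 95%. Named genes were the 20 largest ratios per direction at a mean of at least 30 CPM, of 1 sign in every population with at least 10 members, with at most 50% of UMIs in 5 cells, gene models and ribosomal, mitochondrial and antigen receptor genes left out. To these come the 10 most abundant genes past the fold, 6 per direction for RFP (mean of at least 100 CPM) and the listed genes. For 1 gene that these rules name, the values are not reported here. Leiden clusters used 2000 variable genes, 30 components, 15 neighbours and resolution 0.5 (scanpy 1.11.5, Python 3.11.15). Barcodes with mixed hashtags were left out of the kept cells, and no doublet caller was run. Members, gene lists and limits were chosen with earlier results of these data known. The ratio step was tested on simulated counts.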

Additional observations from a re-analysis of the deposited data

How the results depend on the processing

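The direction of the Ccr7 and Fscn1 ratios held under all settings tried, but their size and the counts of genes past the fold depended on which barcodes were members. The share of members was 1.35% (68 cells) with 3 C1q UMIs, 1.38% without BFP+RFP- cells and 0.656% after thinning. Ccr7 and Fscn1 log2 ratios over the other kept cells were -0.57 and -0.75 with 3 C1q UMIs, -1.09 and -1.20 with 10, -1.30 and -1.29 with 5 per 10000 mRNA UMIs, -1.14 and -1.22 with a hashtag share of 95%, -1.81 and -1.58 without the 5% deepest cells, -1.42 and -1.27 with equal weight of each cell, -1.04 and -1.13 without BFP+RFP+ cells, -1.13 and -1.06 without BFP+RFP- cells, and -0.56 and -0.64 without BFP-RFP- cells. Genes lower in members numbered 210 with 3 C1q UMIs, 849 without the deepest cells, 286 without BFP-RFP- cells, 245 with a pseudocount of 5 and 922 with equal cell weight. Genes higher and lower numbered 5974 and 1395 with no CPM limit, 323 and 177 at a mean of 50 CPM, 534 and 541 over genes with at least 10 CPM in the other kept cells, and 1816 and 1162 in Ccr7/Fscn1-low members alone. As shares of a cell's tag UMIs, the log2 ratios were -1.46 for CD301b (0.30 as UMIs, so reversed), 0.11 for CD172a (1.99), 2.00 for CD11b (3.83) and -2.48 for CD8a (-0.75). Among BFP- Ccr7/Fscn1-low members, 296 genes were higher in RFP+ cells. With the limit set first, a mean of 10 CPM over both groups, genes scarce in the other kept cells entered the lists only by being high in members: 18 of 19 macrophage and 20 of 24 lysosomal genes were then past the fold upward in Ccr7/Fscn1-low members, against 8 of 9 and 18 of 22 with the limit used for the lists, which was chosen after seeing the data. The cause of these shifts was not tested.

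The 50 named genes kept their sign in all 700 comparisons under 14 settings, with a value moved beyond its counting interval in 225. The share of members with 3 or more Ccr7 and Fscn1 UMIs was 30% to 50% over its settings, some of them chosen after seeing the data. No paired analysis was possible because the labels give 1 pool and no replicate numbers. With 50 members, genes below about 10 CPM, reporters included, are near the limit of detection.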
